A study of Mus musculus with 12 samples.

Results

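The motile cilium axoneme genes are the protein-coding genes of GENCODE M21 whose symbol starts with Dnah, Dnaic, Dnaaf, Cfap, Rsph, Tekt or Drc followed by a digit. The rule uses the gene name alone and no measured value. It gave 68 genes of the 56608 gene identifiers in the deposited count tables, and all 68 stand in both tables.

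RNA-seq was carried out on lung samples of C57BL/6 mice with a T-cell knockout of Med23, a subunit of the Mediator complex, and of wild-type mice. Lung tumours and the adjacent normal lung were taken from the same 3 knockout mice, 102, 217 and 224, at 18 months of age, in order to characterise the spontaneous tumours of this genotype. AT2 cells, alveolar epithelial cells that secrete surfactant, were isolated by FACS at 6 months of age from mice 176, 177 and 190 (wild type) and from mice 175, 179 and 191 (knockout), to examine these cells before tumours form. Both lung groups carry the T-cell deletion, no wild-type lung was analysed here, and the labels do not name the Cre driver.

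The axoneme is the microtubule core of a cilium. In motile cilia of the airway, outer and inner dynein arms slide the doublet microtubules, radial spokes and the central apparatus regulate that sliding, and the nexin-dynein regulatory complex links neighbouring doublets. Dynein arms are assembled in the cytoplasm by dedicated factors before transport into the cilium, and tektins and other inner proteins line the doublet lumen. In the lung these structures belong to multiciliated cells of the airway lining, whereas AT2 cells bear no motile cilia. The transcription factor Foxj1 and factors of the RFX family control many axonemal genes.

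Promoters were examined because members that moved together and members that did not could be set side by side. RefSeq promoter sequences on GRCm38.p6, from 250 bases before to 50 bases after the start, were matched for 56 of the 68 genes. The unmatched genes were Cfap54, Cfap65, Cfap73, Cfap97, Cfap157, Cfap299, Cfap53, Dnaaf1, Dnah3, Rsph1, Rsph4a and Rsph10b. Both strands were searched for the RFX half-site GTTGCCA, for the X-box, the paired RFX element given here by name, and for the forkhead motif TGTTTAC. The X-box was searched as a pattern with a fixed spacing between its 2 parts. Paired elements with another spacing, in either kind of promoter, were therefore not counted. An RFX half-site can overlap an X-box. The first 3 sequences are of genes that were lower in tumours, the next 2 are of genes that did not pass the test, and the last is of a marker without a match. Capitals mark RFX half-sites and X-boxes, and each sequence reads 5′ to 3′ on the strand of its gene.
Cfap206 (chr4:34730157-34730456, minus strand, an X-box): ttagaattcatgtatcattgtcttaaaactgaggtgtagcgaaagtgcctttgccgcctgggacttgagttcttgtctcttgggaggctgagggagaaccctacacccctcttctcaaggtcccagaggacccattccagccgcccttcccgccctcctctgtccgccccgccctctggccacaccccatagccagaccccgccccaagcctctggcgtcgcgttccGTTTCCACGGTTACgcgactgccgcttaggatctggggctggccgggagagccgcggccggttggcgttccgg
Cfap44 (chr16:44394549-44394848, plus strand, half-sites and an X-box): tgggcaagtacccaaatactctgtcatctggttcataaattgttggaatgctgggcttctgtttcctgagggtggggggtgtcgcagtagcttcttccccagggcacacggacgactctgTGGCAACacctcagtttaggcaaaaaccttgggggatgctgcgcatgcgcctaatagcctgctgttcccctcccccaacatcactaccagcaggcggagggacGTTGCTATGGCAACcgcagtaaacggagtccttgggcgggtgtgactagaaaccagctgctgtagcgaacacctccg
Cfap161 (chr7:83794790-83795089, minus strand, 3 half-sites): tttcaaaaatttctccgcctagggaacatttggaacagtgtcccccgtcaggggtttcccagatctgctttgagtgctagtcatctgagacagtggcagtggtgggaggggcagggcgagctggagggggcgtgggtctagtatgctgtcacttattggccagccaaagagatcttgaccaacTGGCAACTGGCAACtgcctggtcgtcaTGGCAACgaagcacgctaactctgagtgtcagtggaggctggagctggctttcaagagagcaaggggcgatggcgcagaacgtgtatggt
Cfap298 (chr16:90934800-90935099, minus strand, an X-box and a half-site): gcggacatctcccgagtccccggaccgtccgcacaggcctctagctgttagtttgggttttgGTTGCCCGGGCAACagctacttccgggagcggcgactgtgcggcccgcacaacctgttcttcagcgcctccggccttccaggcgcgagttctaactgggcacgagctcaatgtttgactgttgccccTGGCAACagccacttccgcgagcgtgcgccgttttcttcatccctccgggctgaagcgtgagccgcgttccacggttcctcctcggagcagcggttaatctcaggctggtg
Dnaaf5 (chr5:139149985-139150284, plus strand, an X-box): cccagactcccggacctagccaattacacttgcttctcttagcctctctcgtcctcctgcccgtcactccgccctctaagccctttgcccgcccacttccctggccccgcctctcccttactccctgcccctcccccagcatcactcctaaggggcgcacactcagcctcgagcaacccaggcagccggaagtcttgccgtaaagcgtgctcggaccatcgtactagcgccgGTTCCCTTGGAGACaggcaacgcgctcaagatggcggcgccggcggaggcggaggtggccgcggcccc
Dnah9 (chr11:66168502-66168801, minus strand, no match): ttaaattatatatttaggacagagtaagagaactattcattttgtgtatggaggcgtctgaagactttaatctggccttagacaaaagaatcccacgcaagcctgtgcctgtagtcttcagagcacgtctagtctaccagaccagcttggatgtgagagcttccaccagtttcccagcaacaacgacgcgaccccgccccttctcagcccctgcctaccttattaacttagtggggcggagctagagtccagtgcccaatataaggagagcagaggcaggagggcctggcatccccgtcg

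A gene was counted where any of its promoters held a match. The RFX half-site was found in 13 of 56 members with a promoter (23.2%) and in 5.02% of the 27025 genes in the RefSeq table. The X-box was found in 9 of 56 (16.1%), against 2.49% of all genes in that table. The forkhead motif was found in 4 of 56 (7.14%), against 4.05%. Among members lower in tumours, 8 of 41 genes with a promoter (19.5%) held the half-site and 5 of 41 (12.2%) the X-box. Among tested members that did not pass, 5 of 13 (38.5%) held the half-site and 4 of 13 (30.8%) the X-box. Those with the half-site include Tekt1 and Cfap300, whose log2 fold changes in tumours were -5.10 and -1.34. The members that did not pass are thus not all genes that stayed level. Both motifs were thus present in promoters of either kind, as the printed Cfap44 and Cfap298 sequences show. A match is a description of the letters and no evidence that a factor binds there.

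The 6 lung libraries held 65163100 to 77951014 counts and the 6 AT2 libraries 15943084 to 18913242. Levels are given as CPM (a gene's counts relative to the library total) scaled by the trimmed mean of M-values (TMM), and as RPKM, the same value per kilobase of exon, wherever genes are compared with each other. Tests are edgeR quasi-likelihood tests with Benjamini-Hochberg adjustment over all genes tested, and a gene passed at an adjusted p under 0.05. Nothing in the labels says more of how the tumours were sampled, so each p-value measures the spread between 3 mice per group. Markers of AT2 cells were present at high level in both lung groups: the summed level of 12 genes was 28558 to 61617 CPM in adjacent lung and 95281 to 236769 CPM in tumours. Markers of basal cells were near the floor in both lung groups. The 5 genes summed to 1.71, 1.72 and 3.88 CPM in adjacent lung of mice 102, 217 and 224. In their tumours they summed to 1.14, 1.40 and 0.554 CPM. Of the 5, 2 were tested and 0 passed, and Krt5 was at 0 counts in all 3 tumours.

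In tumours, most axonemal genes were far below their level in adjacent lung, and none was called higher. Of the 68 genes, 52 fell, 14 did not pass and 2 were not tested. The median log2 fold change of the 66 tested members was -5.15, against 0.04 over all genes tested, and it was the same with Tekt3, which had no tumour reads, set at its bound. Among all 19995 genes tested, 7.18% fell and 2.86% rose. By edgeR 0 members were higher, with 0 also at an unadjusted p under 0.05 and 0 by DESeq2. All 3 tumours lay below all 3 adjacent samples for 56 of the 66 members, against 18.9% of all genes. Of the 66, 29 reached the edgeR minimum of 0.136 CPM in every adjacent library but not in every tumour, so the filter admitted them through the group in which they are high. In the 37 that reached it in all 6 libraries, 24 fell (64.9%), against 6.10% of the 15962 genes of the whole table that did so. In bulk tissue, fewer cells of a type and less RNA per cell cannot be told apart.

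**Figure D1:**
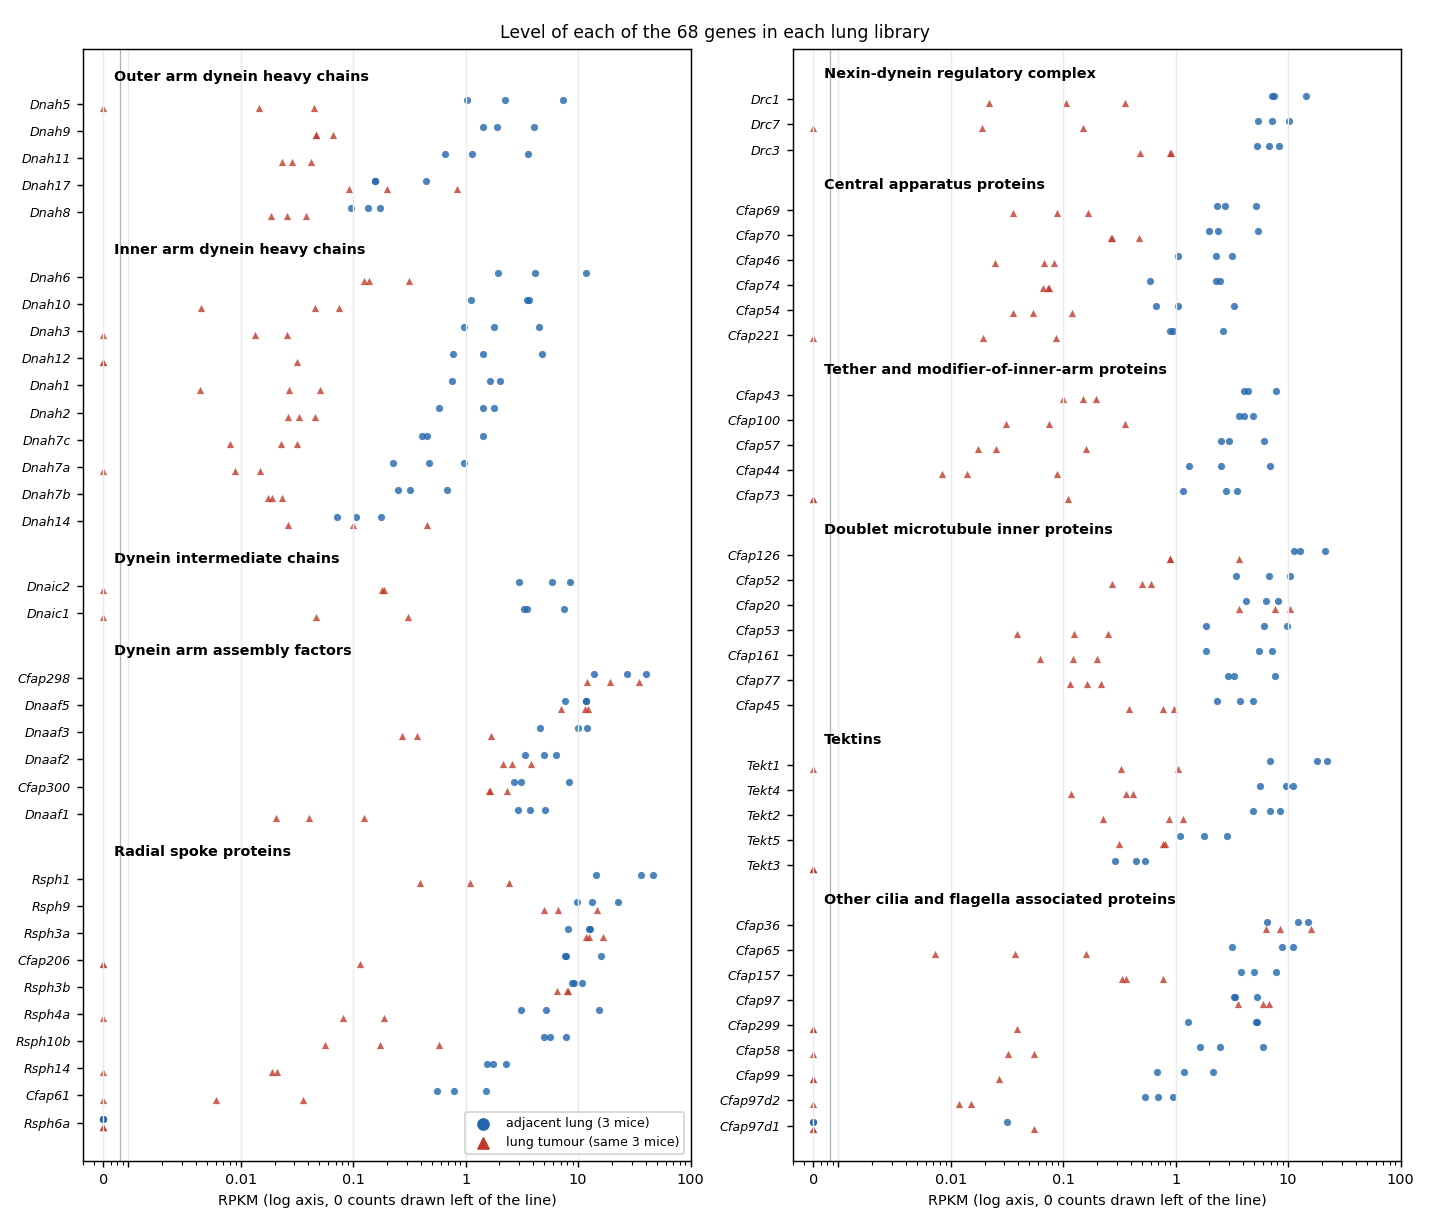
Level of each of the 68 genes in each lung library, in RPKM on a log axis, grouped by role; circles are the 3 adjacent samples, triangles the 3 tumours of the same mice, and libraries with 0 counts stand left of the line. Adjacent and tumour symbols are apart for most dynein, spoke, tether and central genes, and lie together for genes such as Dnaaf5, Rsph3a, Cfap20, Cfap36 and Cfap97.

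Outer-arm dynein heavy chains are the motors that set beat frequency. Dnah9 (ENSMUSG00000056752, chr11:65831282-66168551, GRCm38), the distal outer-arm heavy chain, stood at 64.8, 22.6 and 30.5 CPM in adjacent lung of mice 102, 217 and 224 and at 0.753, 1.05 and 0.743 CPM in their tumours. The highest tumour lay far below the lowest adjacent sample. The means were 39.3 ± 22.4 and 0.848 ± 0.174 CPM (SD, n = 3), and the log2 fold change was -5.53 ± 0.54 (SE, adjusted p = 0.00592). Dnah11, the proximal partner in the airway, fell by 5.85 ± 0.78 on the log2 scale (adjusted p = 0.00871), from 52, 9.51 and 16.6 CPM to 0.412, 0.604 and 0.335 CPM. Dnah5, mutated in primary ciliary dyskinesia, was at 116, 16.1 and 34.7 CPM in adjacent lung and at 0.227, 0.7 and 0 CPM in tumours. It fell by 7.49 ± 1.44 (adjusted p = 0.0213), a call lost without adjacent 102, adjacent 224 or tumour 102 (adjusted p up to 0.0826). Dnah8, best known from sperm, was low throughout, at 2.58 to 4.63 CPM in adjacent lung and 0.495 to 1.02 CPM in tumours. Its change of -2.30 ± 0.57 (adjusted p = 0.0424) was the smallest among the members that fell. With the mouse as a block it had an adjusted p of 0.0501, without the low-count filter 0.0645, and it passed in 1 of the 6 fits that left out 1 library (adjusted p up to 0.137 without adjacent 102, 217 or 224 or tumour 102 or 224). Dnah17, the other sperm heavy chain, did not pass: it was at 1.49, 3.23 and 13.5 CPM in tumours and 2.54, 2.53 and 7.17 CPM in adjacent lung, with mouse 224 high in both tissues. Without tumour 224 its log2 fold change turned from 0.57 ± 0.85 to -0.79.

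Inner-arm heavy chains shape the waveform, and 9 of 10 fell. Dnah6 had 157, 25.8 and 54.5 CPM in adjacent lung and 4.19, 1.67 and 1.82 CPM in tumours, a change of -4.95 ± 0.79 (adjusted p = 0.0130). Dnah3 fell by 7.50 ± 1.25 (adjusted p = 0.0146, 0.0536 without both libraries of mouse 217). Dnah10 fell by 6.05 ± 1.02 (adjusted p = 0.0147, 0.0525 without tumour 224). Dnah12 had 57.7, 9.19 and 17.0 CPM in adjacent lung, and reads in tumours only in mouse 102, at 0.383 CPM. Its change was -7.73 ± 1.64 (adjusted p = 0.0281), lost without adjacent 102, adjacent 224 or tumour 224 (adjusted p up to 0.0908). Dnah1, Dnah2, Dnah7a, Dnah7b and Dnah7c also fell, with changes of -4.38 to -6.11. The Dnah7a, Dnah7b and Dnah7c copies are near-identical, so the split of reads between them is uncertain, and Dnah7a passed in 2 of the 6 left-out fits (adjusted p up to 0.0799 without adjacent 102, 217 or 224 or tumour 102). Dnah14 was the exception: tumour 217 stood at 7.41 CPM beside 0.426 and 1.6 CPM in the other two tumours and 1.17 to 2.89 CPM in adjacent lung. Without tumour 217 its log2 fold change went from 0.71 ± 0.96 to -0.996. The intermediate chains Dnaic1 and Dnaic2, which anchor the outer arm, both fell, by 5.34 ± 1.38 (adjusted p = 0.0496) and 5.56 ± 1.27 (adjusted p = 0.0347). Dnaic1 was at 21, 9.11 and 9.82 CPM in adjacent lung and at 0, 0.859 and 0.131 CPM in tumours. Both calls were lost with the mouse as a block (adjusted p = 0.0659 and 0.0520), and each passed in 1 of 6 left-out fits (up to 0.137 and 0.102), holding for Dnaic1 without tumour 217 and for Dnaic2 without tumour 224. Dnaic1 also did not pass with DESeq2 size factors (0.0544) or without the low-count filter (0.0616).

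Dynein assembly factors, which work in the cytoplasm, divided. Dnaaf1 fell by 5.99 ± 0.79 (adjusted p = 0.00871), from 14.4, 10.6 and 8.30 CPM to 0.114, 0.350 and 0.0583 CPM. Of its exon length, 20.7% is shared with Taf1c on the opposite strand, and the library kit does not mark strand. Dnaaf3 fell by 3.51 ± 0.80 (adjusted p = 0.0348), with 22, 10.1 and 26.7 CPM in adjacent lung and 3.72, 0.604 and 0.830 CPM in tumours, and passed in 1 of 6 left-out fits (up to 0.106; it passed without tumour 102). Dnaaf5 stood at 41.4, 26.9 and 41.2 CPM in adjacent lung and at 40.7, 25.0 and 43.1 CPM in tumours. The paired values of each mouse lay close together, and the difference was -0.01 ± 0.34 on the log2 scale. Cfap298 was at 43.2, 64.5 and 22.1 CPM against 30.3, 55.5 and 19.1 CPM, a difference of -0.31 ± 0.51 (adjusted p = 0.799), and mouse 217 was highest in both tissues. Of its exon length, 44.2% overlaps Gm49727 on the opposite strand. Dnaaf2 (-0.78 ± 0.40, adjusted p = 0.291) overlaps Gm49383 and Gm49384 on its own strand over 22.3% and 20.65% of its exons. It also overlaps 9330151L19Rik on the opposite strand over 32.65%, so its level is uncertain. Cfap300 had a difference of -1.34 ± 0.56 (adjusted p = 0.193), with 2.55 to 3.72 CPM in tumours, all below the 4.29 to 13.1 CPM of adjacent lung.

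Radial spoke genes encode the projections that contact the central apparatus. Rsph1 (ENSMUSG00000024033, chr17:31255019-31277383), a spoke-head protein, had the values 49.4, 63.8 and 19.8 CPM in adjacent lung and 1.51, 3.36 and 0.539 CPM in tumours, with mouse 217 highest and mouse 224 lowest in both. It fell by 4.62 ± 0.78 (adjusted p = 0.0149, 0.0634 without tumour 102). Cfap206 (ENSMUSG00000028294, chr4:34688559-34730206), a protein of the spoke base, whose promoter with an X-box is printed above, was at 39.5, 19.3 and 19.2 CPM in adjacent lung. In tumours it was at 0, 0.286 and 0 CPM, so that only mouse 217 gave tumour reads. The change was -8.10 ± 1.45 (adjusted p = 0.0172), lost without adjacent 102 or adjacent 224 (up to 0.0580). Rsph4a, Rsph10b, Rsph14 and Cfap61 also fell, with log2 changes of -4.51 to -7.08. Of these, Rsph14 passed in all 6 left-out fits, Rsph4a and Rsph10b were lost without adjacent 102, adjacent 224 or tumour 102 (up to 0.0953 and 0.0740), and Cfap61 without any adjacent library or tumour 217 (up to 0.0839). Rsph9, another spoke-head gene, stayed nearer its adjacent level, at 7.95, 23.5 and 10.7 CPM against 21.3, 35.9 and 15.6 CPM (-0.79 ± 0.51, adjusted p = 0.420). Rsph3a (0.29 ± 0.32) and Rsph3b (-0.36 ± 0.28), which encode near-identical spoke-stalk proteins and may exchange reads, did not pass either. Rsph6a, a sperm paralogue, had 0 counts in all 12 libraries.

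The genes of the nexin-dynein regulatory complex, of the central apparatus and of the tether complexes fell throughout, 14 of 14. These include genes such as Cfap44, Cfap73 and Cfap221, which the filter admitted through adjacent lung, where they are high. Drc3 kept the most, at 4.09, 4.04 and 2.18 CPM in tumours against 37.2, 30.4 and 23.7 CPM (-3.15 ± 0.40, adjusted p = 0.00845). Drc1 fell by 5.92 ± 0.98 (adjusted p = 0.0145, 0.0598 without tumour 102) and Drc7 by 7.09 (adjusted p = 0.0174; lost without adjacent 102, adjacent 224 or tumour 102, up to 0.0644). Among central apparatus genes, Cfap69 fell from 40.7, 18.3 and 21.6 CPM to 0.284, 1.3 and 0.699 CPM (-5.14 ± 0.69, adjusted p = 0.00871). Cfap46 (-5.22 ± 0.68) and Cfap74 (-4.64 ± 0.64) passed in every left-out fit, while Cfap70 (-3.26 ± 0.56) was lost without tumour 102 (0.0527), Cfap54 (-4.58 ± 0.80) without tumour 224 (0.0534), and Cfap221 (-5.37 ± 1.29) in 5 of 6 such fits, all but that without tumour 217 (up to 0.126), and without the low-count filter (0.0513). Cfap43, a tether protein, had the values 54.9, 28.9 and 30.9 CPM in adjacent lung and 1.07, 1.38 and 0.699 CPM in tumours. The 3 tumours were close to each other, and the change of -5.19 ± 0.48 had an adjusted p of 0.00592. Its partner Cfap44 fell by 6.61 ± 1.14 (adjusted p = 0.0157; up to 0.0520 without tumour 102 or tumour 224), and Cfap57 had a change of -5.86 ± 0.98 (adjusted p = 0.0147). Cfap100 (-4.78 ± 0.91; up to 0.0634 without adjacent 102, adjacent 224 or tumour 224) and Cfap73 (-5.99 ± 1.43; up to 0.109, passing only without tumour 224) completed the group.

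Proteins of the doublet lumen and wall fell in 6 of 7 cases, and tektins, which form filaments there, in 3 of 5. Cfap126 fell by 3.07 ± 0.66 (adjusted p = 0.0297), from 22.9, 38.1 and 20.2 CPM to 1.58, 6.49 and 1.59 CPM, and Cfap45 by 2.37 ± 0.49 (adjusted p = 0.0255). Each of these 2 calls held in 1 of 6 left-out fits, that without tumour 217 (up to 0.0905 and 0.0888). Cfap52 (-3.90 ± 0.59), Cfap77 (-4.80 ± 0.60) and Cfap161 (-5.24 ± 0.73) passed in every such fit, and Cfap53 (-5.42 ± 0.92) was lost without adjacent 102 or tumour 102 (up to 0.0614). Cfap20, a doublet protein also present in primary cilia, was at 34.0, 16.2 and 46.0 CPM in tumours and 36.3, 18.9 and 28.3 CPM in adjacent lung (0.20 ± 0.44). Tekt4 fell by 4.87 ± 0.63 (adjusted p = 0.00851) and Tekt2 changed by -3.16 ± 0.66 (adjusted p = 0.0263; up to 0.0793 without any adjacent library or tumour 224), and 20.8% of Tekt2 exon length overlaps Gm12945 on the opposite strand. Tekt3 had 0.501, 0.776 and 0.931 CPM in adjacent lung and no reads in any tumour. Taking 3 counts over the tumour group as the limit, it was at least 49.5-fold lower, and its call (adjusted p = 0.0194) was lost with the mouse as a block (0.0626) and in 5 of 6 left-out fits, all but that without tumour 217 (up to 0.0767). Tekt1 was at 35.7, 29.1 and 11.3 CPM against 0.525, 1.70 and 0 CPM, a difference as large as that of many members that passed (-5.10 ± 1.37), with an adjusted p of 0.0565. It passed with the mouse as a block (0.0341), with library totals alone (0.0354) and with DESeq2 (0.0237). Tekt5 (-1.61 ± 0.63, adjusted p = 0.167) did not pass, although its tumours lay below its adjacent samples.

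The remaining Cfap genes have less settled places in the cilium. Cfap65, at 68.8, 24.9 and 86.7 CPM in adjacent lung, stood at 0.0568, 1.26 and 0.291 CPM in tumours (-6.82 ± 1.14, adjusted p = 0.0146, 0.0522 without tumour 224). Cfap299 fell by 8.06 ± 1.33 (adjusted p = 0.0145, 0.0628 without both libraries of mouse 217) and was detected in tumour 102 alone. Of its exon length, 19.1% is shared with E030032P16Rik on its own strand. Cfap157 (-3.51 ± 0.57) and Cfap97d2 (-6.26 ± 1.04) passed in every left-out fit, Cfap58 (-6.85 ± 1.18) was lost without adjacent 102 or tumour 102 (up to 0.0610), and Cfap99 (-7.07 ± 1.32) without adjacent 102, adjacent 224 or tumour 224 (up to 0.0691). Cfap36 (-0.14 ± 0.46) and Cfap97 (0.43 ± 0.36) did not pass, and Cfap97 stood at 34.7, 18.5 and 30.7 CPM in tumours and 27.4, 17.1 and 17.5 CPM in adjacent lung. Cfap97d1 was too low to be tested.

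**Figure D2:**
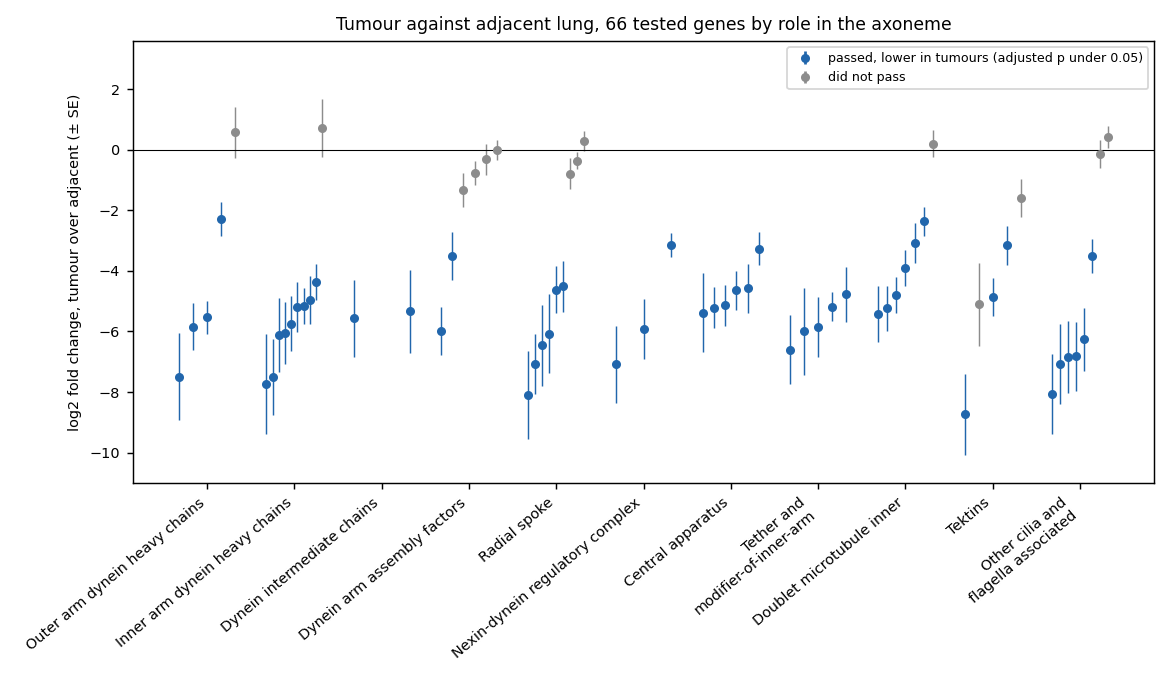
Log2 fold change of tumour over adjacent lung (± SE) for the 66 tested genes by role, with members that passed in blue and the others in grey. Every role has blue points between about -2.30 and -8.10, apart from Tekt3, whose fitted value rests on 0 tumour counts; grey points are most frequent among assembly factors, with 4 of 6.

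The number of members called depended on single libraries, while no member was called higher under any alternative. With 1 library left out, 30 to 49 members were lower, the fewest without adjacent 102, and 23 of the 52 passed in all 6 such fits. The share of all genes tested that were lower dropped too, from 7.18% to between 2.22% and 6.57%. It was 2.64% without adjacent 102. Without adjacent 224 the number was 32, without tumour 102 it was 33, and without both libraries of mouse 217 it was 34. The losses given gene by gene above are mainly those of fits with 1 library left out. Calls lost without mouse 217 also include Cfap53, Cfap54, Cfap58, Cfap99, Rsph4a, Dnah7a and Dnah12 (edgeR adjusted p of 0.0507 to 0.0711). All 52 also passed with DESeq2.

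What was left in the tumours differed between mice. Over the 52 members that fell, the median tumour level was 0.898% of the adjacent level in mouse 102, 5.38% in mouse 217 and 2.05% in mouse 224. These members were chosen by the same comparison, so the percentages are descriptive. Adjacent 102 was the highest adjacent sample for 45 of the 52, and adjacent 217 the lowest for 31. The 13 Dnah genes among them have exon lengths of 12009 to 26820 bases, and their adjacent 217 level was a median 35.6% of the mean of the adjacent 102 and 224 levels, against 65.7% for the other 39. Across the 52, exon length and the adjacent 217 level relative to that mean had a Spearman rho of -0.569. Whether transcript length or RNA quality had a part in this as a cause was not tested.

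**Figure D3:**
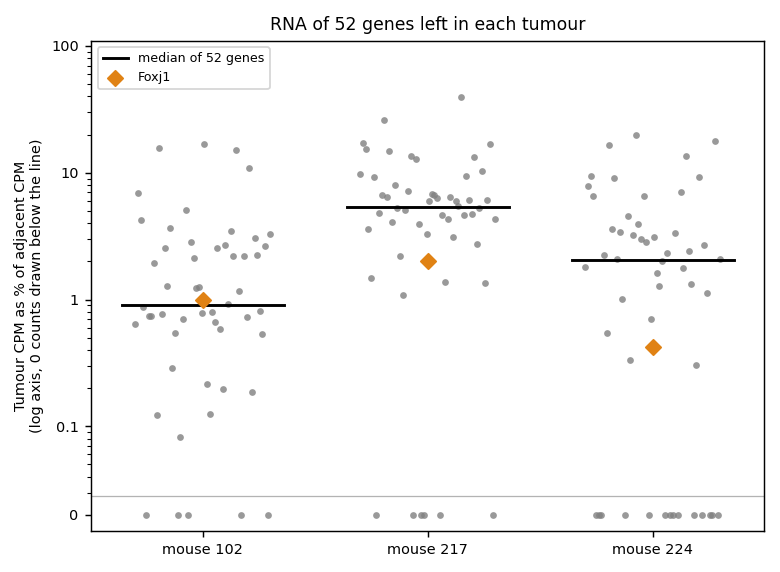
Tumour CPM as a percent of adjacent CPM in the same mouse, on a log axis, for the 52 genes lower in tumours (grey), with their median (line) and Foxj1 (diamond); 0 counts stand below the line. The medians are 0.898%, 5.38% and 2.05%, and Foxj1 lies at 0.989%, 2.03% and 0.420%.

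The summed level of these 52 genes was 1699, 706 and 895 CPM in adjacent lung and 35.4, 52.5 and 25.1 CPM in tumours. The 14 that did not pass summed to 353, 328 and 237 CPM in adjacent lung and 247, 282 and 254 CPM in tumours. They made up 84.3% to 91.0% of the summed CPM of all members in tumours, and 17.2% to 31.7% in adjacent lung. Both groups of genes were set by this same comparison, so the shares are a description.

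**Figure D4:**
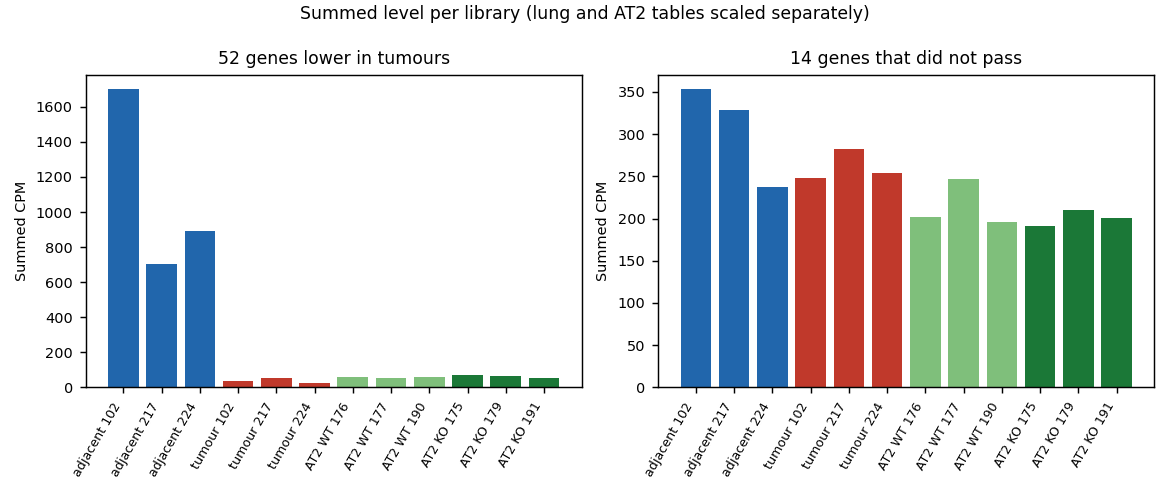
Summed CPM per library of the 52 genes lower in tumours (left) and of the 14 that did not pass (right), in adjacent lung, tumours and AT2 cells, with the lung and AT2 tables scaled separately. The left bars drop from 706 or more in adjacent lung to 52.5 or less in tumours; the right bars lie between 191 and 353 in all 12 libraries.

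Axonemal genes with other names, such as those for dynein light chains, docking factors and further central apparatus proteins, were also counted: 28 of 43 tested fell and 0 rose by edgeR (0 rose at an unadjusted p under 0.05 or by DESeq2), with a median log2 fold change of -3.90. Of the 45 genes listed, 13 had 0 counts in tumour 224, so some could pass the filter through adjacent lung. No count limited to genes at the filter minimum in all 6 lung libraries was made for this or the following lists. Dnali1, an inner-arm light intermediate chain, fell by 6.71 ± 0.94 (adjusted p = 0.00992). Tubb4b, a tubulin with uses outside cilia, did not pass (-0.25 ± 0.30), nor did Spef1 (-0.20 ± 0.32). Of 13 regulators of the multiciliated state, 7 fell, and the median was -4.43. With the mouse as a block 5 were lower, and DESeq2 called 10. Foxj1 was at 184, 162 and 153 CPM in adjacent lung and 1.82, 3.29 and 0.641 CPM in tumours (-6.44 ± 0.66, adjusted p = 0.00592). The 3 adjacent Foxj1 values lay close together and far above the tumours. E2f4, a cell cycle factor that also acts in centriole amplification, did not pass (0.04 ± 0.31). Of 34 genes for intraflagellar transport and the BBSome, which serve primary cilia as well, 0 passed by edgeR, and their median was -0.25. At an unadjusted p under 0.05, 2 were lower and 1 higher, and DESeq2 called 1 lower. Ift172 (-0.56 ± 0.27) and Ift20 (1.02 ± 0.42) did not pass, and with the mouse as a block 2 of the 34 were lower.

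Other multiciliated cell markers moved with the axonemal genes: 11 of 12 fell, and their summed level was 1061 to 1787 CPM in adjacent lung and 19.1 to 59.0 CPM in tumours. Markers of club cells, the secretory cells of the same airway lining, fell in 7 of 13 cases, with a median of -3.21, and summed to 20122 to 40034 CPM in adjacent lung and 3213 to 4569 CPM in tumours. No club marker was at 0 in any lung library. Of 12 AT2 markers, 2 rose, Sftpb and Lamp3 (Sftpb was lost without any adjacent library or tumour 224, adjusted p up to 0.0780), and 7 did with the mouse as a block. DESeq2 also called 7 of the AT2 markers higher, 8 were higher at an unadjusted p under 0.05, and their median log2 fold change was 1.42. The part of airway tissue in the samples in the axonemal result was not tested.

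In sorted AT2 cells the levels of axonemal genes differed widely. The 52 members that fell in tumours had a median of 0.0743 RPKM over the 6 AT2 libraries, and the 14 that did not pass a median of 4.09 RPKM. Above 1 RPKM were 2 of the 52, Cfap126 and Cfap69, and 9 of the 14. The highest levels were those of Cfap20 (15.4 RPKM), Cfap36 (8.81), Cfap97 (7.54), Rsph3b (6.39), Dnaaf5 (5.83) and Cfap298 (4.78). The groups of 52 and 14 were set by the tumour comparison and the 2 tables were scaled separately, so these levels are a description. Cfap69 stood at 9.04 to 12.2 CPM in the 6 AT2 libraries and at 0.284 to 1.3 CPM in the tumours, whereas Dnah9 was at 0.301 to 1.59 CPM and Rsph1 at 0.0573 to 0.525 CPM in AT2 cells. The 12 multiciliated markers had a median of 0.285 RPKM in AT2 cells, against 27.7 RPKM in adjacent lung, and 4 of the 12 were high enough to be tested. Their summed level was 276 to 446 CPM in AT2 libraries, of which Sec14l3 alone gave 240 to 387 CPM, while Foxj1 itself stood at 0.515 to 2.58 CPM there.

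**Figure D5:**
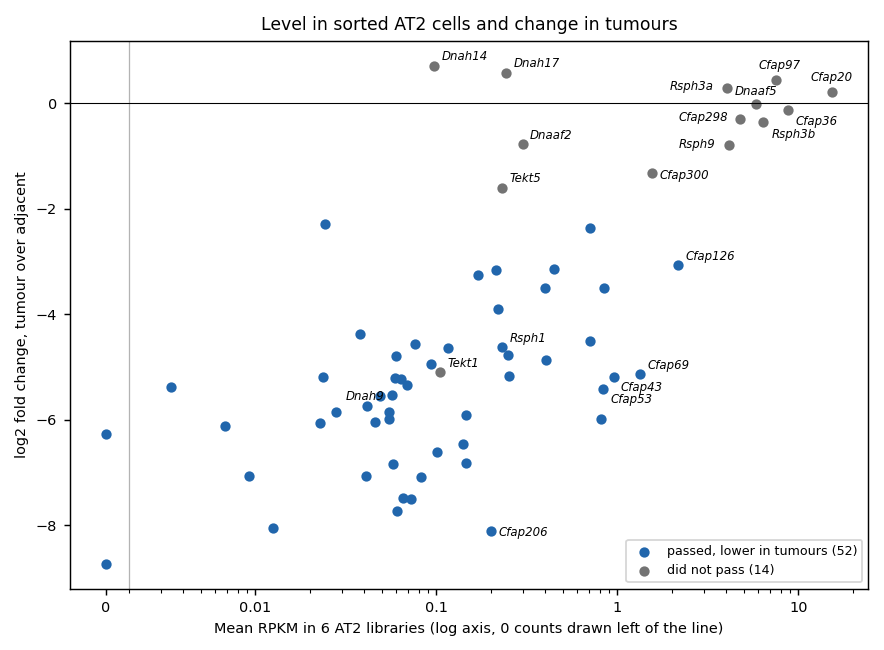
Mean RPKM in 6 AT2 libraries (log axis, 0 counts left of the line) against log2 fold change in tumours for the 66 tested members, blue where lower in tumours and grey where not passed. Members above about 4 RPKM in AT2 cells, such as Cfap20 and Cfap36, lie near 0 on the vertical axis, and most members under 0.1 RPKM lie below -4.

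Deletion of Med23 in T cells was not followed by a called change of any axonemal gene in AT2 cells. Of the 68, 39 were tested and 0 passed in either direction by edgeR, where 0% of all 14053 genes passed. At an unadjusted p under 0.05 there were 3 members and 347 genes in all, and DESeq2 called 0 members. The median log2 difference, knockout over wild type, was 0.07, with 22 of 39 above 0, a median SE of 0.44, and a range of -1.24 to 1.17. Groups did not overlap for 4 of the 39, against 8.30% of all genes. The 3 members with a low unadjusted p are named after their values were seen. Cfap74 gave 1.41, 2.12 and 1.38 CPM in the wild-type libraries and 0.583, 0.877 and 0.602 CPM in the knockout libraries (-1.24 ± 0.44). Cfap43 gave 5.93, 4.81 and 6.02 CPM in the former and 8.23, 7.73 and 7.77 CPM in the latter (0.50 ± 0.21). Dnah14 gave 1.47, 1.15 and 0.688 CPM in the former and 2.1, 2.14 and 1.93 CPM in the latter (0.90 ± 0.40). None of these differences passed the adjusted test (adjusted p = 0.984 for each). Of the members most abundant in AT2 cells, Cfap20 differed by -0.23 ± 0.18 and Cfap97 by -0.09 ± 0.15.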

How the data were processed

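RNA-seq counts per gene were deposited by the authors in 2 tables, one of 6 lung and one of 6 AT2 libraries. Per the submitters' processing notes, Trimmomatic 0.39, FastQC, HISAT2, StringTie 1.3.3b and DESeq2 1.28.1 were used; the counting step and its strand setting were not given in the sources used here. Per the labels, libraries were made from poly-A RNA with a kit that does not mark strand. Columns were assigned to samples by title. Each table was tested separately from the deposited counts with edgeR 4.0.16 in R 4.3.3 (filterByExpr, TMM, glmQLFit, glmQLFTest, Benjamini-Hochberg), and the code was tested on simulated data. DESeq2 1.42.0, other scalings, no filter, left-out libraries and a mouse block were alternatives. SE is the size of the log2 fold change divided by the square root of F. Exon lengths and names are from GENCODE M21; 1035 lung identifiers (0.0388% of counts) had no name.

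Tumour and adjacent libraries with the same number come from the same mouse, and their deviations from the group means correlated (r = 0.273, 0.459 and 0.366 for 102, 217 and 224). No 2 libraries of a group agreed within sampling noise. The members, lists and tests were chosen with earlier results of these data known. Genes were named by rule: the 3 markers, the 4 members of highest adjacent RPKM per role, those higher in tumours, the 5 largest and 5 smallest changes, and the 6 highest in AT2 cells; the other members are named to account for all.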

Additional observations from a re-analysis of the deposited data

How the results depend on the processing

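The number of members lower in tumours was 52, with 51 with DESeq2 size factors, 53 with library totals alone, 49 without the low-count filter, 53 with the DESeq2 test and 49 with the mouse as a replicate block. Leaving out 1 library gave 30 to 49, and leaving out both libraries of mouse 217 gave 34. Those fits hold fewer samples. Of all genes tested, 2.22% to 6.57% were lower with 1 library left out and 3.40% without mouse 217, against 7.18% with all libraries. No member was called higher under these alternatives, and none was called in AT2 cells. The block kept 48 of the 52 calls, lost Dnah8, Dnaic1, Dnaic2 and Tekt3 and gained Tekt1. Library totals alone moved the median log2 fold change of all genes from 0.04 to -0.18 and the share of higher calls from 28.4% to 17.6%; 52 of the 52 members remained lower.

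The direction of 8 differences that did not pass turned, and the cause was not tested. Dnaaf5 was 0.0018 with DESeq2 size factors. E2f4 was -0.17 with library totals alone and -0.0229 without the filter. Dnah14 was -0.57 without mouse 217. With 1 library left out, the log2 differences ran from -0.19 to 0.13 for Dnaaf5, -0.19 to 0.20 for E2f4, -0.15 to 0.46 for Cfap20, -0.88 to 0.10 for Cfap298, -0.67 to 0.12 for Cfap36, -0.996 to 1.22 for Dnah14 and -0.79 to 1.26 for Dnah17. For Cfap298 in AT2 cells they ran from -0.24 to 0.0163. Of the members that fell, 18 had 0 counts in at least 1 tumour, and in the AT2 libraries 29 members were not tested; the depth sets a limit on their values.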
